A study of Mus musculus with 6 samples.

Results

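Translation initiation factors are the proteins that bring the initiator tRNA, the mRNA and the small ribosomal subunit together at the start codon. Their genes were taken from a liver array study of mouse offspring as all gene symbols of the platform annotation that begin with Eif and a digit, leaving out pseudogene symbols. That gave 49 probe sets for 48 genes, of 30063 genes with a single name and 65956 probe sets in all. For Eif3d, the 1 gene with more than 1 probe set, the brighter was kept. A further 6 probe sets list an Eif symbol together with other genes or symbols, among them Eif3j1, Eif4a2, Eif4a3, Eif4ebp3 and Eif5. No value is given for these. Eif1, Eif2s1, Eif3g and Eif4g1 are not among the 48 members either, so the eIF1, eIF2, eIF3 and eIF4 sets below are incomplete. The members fell into 12 eIF3 genes, 10 eIF4 genes, 5 each of eIF2 and eIF2B, 4 each of eIF1 with eIF1A, the eIF2 alpha kinases and the eIF5 to eIF6 genes, 3 genes of 4E-binding proteins and Eif2c5. Eif2c5 is a former Argonaute symbol that RefSeq types as a long noncoding RNA, so it belongs by its symbol alone.

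The study hybridised total RNA from the livers of 6 male mice aged 8 weeks to 1 Affymetrix array each. In the HFD-inulin group (3 mice) the mothers had received inulin, a fermentable plant fibre. In the HFD group (3 mice) the mothers had received a high-fat diet (HFD). Since the HFD-inulin title names both, whether inulin came with the high-fat diet or replaced it is not settled by the labels. Strain, timing, dose, the offspring's own diet and the number of litters are not stated in the labels. The 3 mice of a group may therefore share a mother, and every p-value below reflects only the spread among these 6 livers.

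Initiation begins when eIF2, loaded with GTP and the initiator tRNA, joins eIF1, eIF1A, eIF3 and eIF5 on the small subunit. The eIF4 proteins bind the mRNA cap and unwind the leader, and eIF5B then joins the large subunit. Cells slow this process mainly at a pair of points: kinases phosphorylate eIF2 alpha, which blocks the exchange factor eIF2B, and 4E-binding proteins hold the cap-binding protein eIF4E until mTOR phosphorylates them. In liver both controls respond to feeding, amino acids and insulin.

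Promoter sequence shows what some of the genes that stand apart between the groups carry at their starts. RefSeq (build GRCm38.p6) gave a promoter for 37 members. The window searched ran from 150 bases before to 30 bases after the annotated start, 180 bases in all. Shown are the 5 genes with the smallest p among the members whose groups did not overlap and that have a sequence, each 5′ to 3′, with motif matches in capitals. The coordinates are chr2:105016998-105017177, minus strand for Eif3m, chrX:159372028-159372207, plus strand for Eif1ax, chr2:154892877-154893056, minus strand for Eif2s2, chr17:78882543-78882722, minus strand for Eif2ak2 and chr7:126566337-126566516, minus strand for Eif3c.
Eif3m: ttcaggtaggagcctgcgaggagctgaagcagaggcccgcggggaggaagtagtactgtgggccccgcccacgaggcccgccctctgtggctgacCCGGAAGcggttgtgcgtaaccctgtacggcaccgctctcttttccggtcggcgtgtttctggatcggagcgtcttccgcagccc
Eif1ax: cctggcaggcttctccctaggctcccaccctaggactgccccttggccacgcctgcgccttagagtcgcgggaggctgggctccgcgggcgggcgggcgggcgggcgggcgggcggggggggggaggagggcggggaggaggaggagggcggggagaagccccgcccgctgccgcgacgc
Eif2s2: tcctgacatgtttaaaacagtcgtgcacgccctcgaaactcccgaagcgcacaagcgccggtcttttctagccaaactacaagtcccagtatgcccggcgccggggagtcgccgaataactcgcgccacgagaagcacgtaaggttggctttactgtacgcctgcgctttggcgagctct
Eif2ak2: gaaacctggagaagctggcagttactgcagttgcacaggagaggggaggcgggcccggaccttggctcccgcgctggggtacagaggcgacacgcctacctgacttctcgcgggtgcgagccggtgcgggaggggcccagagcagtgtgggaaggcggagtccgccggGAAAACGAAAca
Eif3c: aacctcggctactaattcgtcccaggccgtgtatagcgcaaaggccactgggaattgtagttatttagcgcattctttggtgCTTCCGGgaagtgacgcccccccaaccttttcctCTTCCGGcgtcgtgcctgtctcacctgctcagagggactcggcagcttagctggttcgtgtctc
The capitals in Eif3m and Eif3c are the ETS-type motif CCGGAAG, read on either strand. It lies once in Eif3m, 55 bases before the start, and 2 times in Eif3c, 68 and 34 bases before. The capitals in Eif2ak2 are the core of an interferon-stimulated element, searched as GAAA, any 2 bases and GAAA on either strand, which begins at base 19 counted from 1 at the start. Eif1ax and Eif2s2 held none of the motifs searched. Neither did Eif4a1 and Eif2s3y, whose groups also did not overlap and whose sequences are not shown. Eif3i, Eif3h and Eif3e, the other members without overlap, had no sequence here. The ETS motif occurred in 14 of the 37 members (37.8%), including 4 of 8 eIF3 genes with a sequence, against 8.07% of 27025 genes with a promoter. The E-box CACGTG occurred in 8 members (21.6%), against 5.80% of genes, and among them was Eif4e. The interferon element occurred in 2 members (Eif2ak2 and Eif2s3x), against 2.20% of genes. A C at the start followed by 4 pyrimidines, the shape of a terminal oligopyrimidine tract, occurred in 3 members (Eif2c5, Eif2s3x and Eif3f), against 3.01% of genes. Base composition was not matched between members and other genes, and a match is not a shown binding site.

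Groups were not separated by the largest principal component, which held 52.6% of the variance. HFD-inulin array 3 lay with HFD arrays 2 and 3 on one side of it, and HFD-inulin arrays 1 and 2 lay with HFD array 1 on the other. Chromosome Y probe sets with shared values split the arrays the same way, at means of 3.15, 3.24 and 2.99 in the first 3 arrays and 1.91, 1.60 and 1.34 in the last 3. Results are therefore also given within each side. The hepatocyte markers, 9 of 11 measured and none below the median probe set, lay at list means of 9.85 to 9.93 in HFD-inulin and 10.02 to 10.1 in HFD. The groups thus stood apart on that list, with a mean difference of -0.15, and its part in the results below was not tested. The 3 pancreas markers measured also stood apart, at 1.24 to 1.29 against 1.34 to 1.41, close to the median probe set (1.22). The neutrophil list, 9 of 9 measured with S100a8, Retnlg and Ngp below the median probe set, reached 1.72 in HFD-inulin array 2, against 1.37 and 1.38 in HFD-inulin arrays 1 and 3 and 1.32 to 1.43 in HFD. The same array was highest on the cholangiocyte list (5 of 6 measured, Cftr below the median probe set), at 2.21 against 1.82 to 1.84 in the other HFD-inulin arrays and 1.77 to 1.92 in HFD. It was also highest on the adipocyte list (6 of 7 measured, with Adipoq, Lep and Retn below the median probe set), at 2.03 against 1.75 to 1.84 and 1.76 to 1.79. The part of these 3 lists in the results was not tested. On all 3, and on the other 6 marker lists, the groups overlapped. The overlap was narrow on the Kupffer cell and macrophage list, at 4.903 to 5.045 in HFD-inulin and 5.044 to 5.167 in HFD. The mean difference there was -0.127, with 2 of 11 markers higher in HFD-inulin, and its part was not tested either.

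Most initiation factor genes had a higher mean in the HFD-inulin livers, by small amounts, and none passed the test. Of 48 members, 38 had a difference above 0, with a median log2 difference of 0.13 (HFD-inulin minus HFD) and a range of -0.35 to 0.43. No member had a limma adjusted p under 0.05, and nor did any of the 65956 probe sets (0.0% called). The smallest adjusted p of a member was 0.902. Without adjustment 5 members lay under 0.05, all higher in HFD-inulin: Eif3m, Eif3i, Eif1ax, Eif2s2 and Eif3h. That is 10.4% of members, where 5.15% of all probe sets did, 2.52% higher and 2.64% lower.

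Most members are bright, and bright genes as a whole leaned the same way. Among the 7623 named genes at or above the members' lower quartile of mean signal (3.53), 13.2% lay under 0.05 and 9.93% did so with a higher mean in HFD-inulin. The members' 10.4% is thus near these shares, though it also counts the members below that signal. Brightness was not otherwise matched between the members and these genes, here or below. The difference was above 0 for 79.2% of members, for 63.0% of these bright genes and for 43.5% of all probe sets. Median log2 differences were 0.13 for members, 0.06 for bright genes and -0.016 for all probe sets. In a liver homogenate fewer cells of a type and less RNA per cell cannot be told apart.

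**Figure D1:**
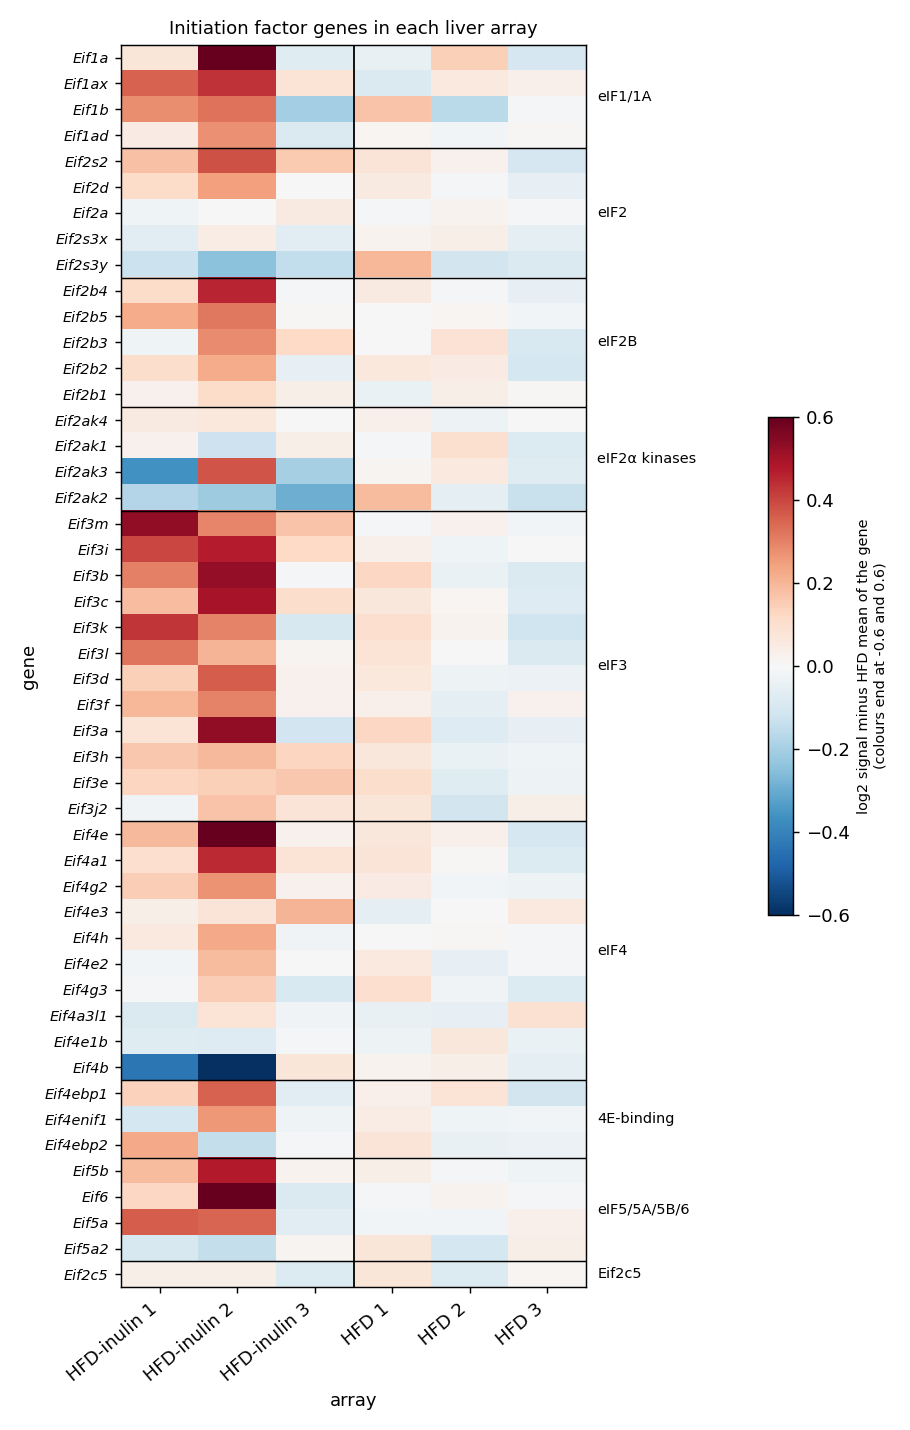
Log2 signal of each of the 48 genes (rows, by factor complex) minus the gene's HFD mean, in the 3 HFD-inulin arrays (left) and the 3 HFD arrays (right); red is above the HFD mean and blue below, and colours end at -0.6 and 0.6. HFD-inulin array 2 is the reddest column, with the highest value of 32 of the 48 genes.

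One array carried much of this. HFD-inulin array 2 held the highest value of 32 of 48 members (66.7%), where it held 35.6% of the highest values among the bright genes. HFD-inulin array 1 was highest for 5 members, HFD-inulin array 3 for 4 and an HFD array for 7. The median member lay 0.10, 0.26 and 0.0015 above its HFD mean in the HFD-inulin arrays, in the order 1 to 3, where the HFD arrays gave 0.046, -0.0064 and -0.033. HFD-inulin array 3 therefore sat among the HFD arrays. Without HFD-inulin array 2 the median member difference was 0.036. The count under an unadjusted 0.05 was 3 without that array, where 3.92% of all probe sets lay under 0.05. It was 2 without HFD-inulin array 1 (3.98% of all probe sets) and 5 without HFD array 1 (6.12%). Without HFD array 2 or HFD array 3 it was 3 (3.18% and 3.36%). It was 18 with HFD-inulin array 3 left out, where 9.89% of all probe sets lay under 0.05. Groups did not overlap in 10 members, 8 higher and 2 lower. That is 20.8% of members, against 10.3% of all probe sets (4.32% higher and 6.02% lower) and 16.4% of bright genes, 11.2% of which were higher and 5.19% lower. The exact permutation p of each of the 10 was 0.1, the smallest that 3 against 3 arrays allow.

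eIF3 is the large scaffold that holds the other factors on the small subunit, and it has the most genes of any complex measured here. The HFD-inulin mean was the higher one for all 12 measured subunit genes, by 0.08 to 0.33 and by 0.18 in the median. In 5 of them the groups did not overlap, and 3 lay under an unadjusted 0.05, where among bright genes 16.4% did not overlap and 13.2% lay under 0.05 (10.3% and 5.15% of all probe sets). The measured genes of eIF2B (5 of 5), eIF1 with eIF1A (4 of 4) and the 4E-binding proteins (3 of 3) also all had a higher HFD-inulin mean. Among bright genes 63.0% had one. The median subunit stood 0.19, 0.30 and 0.052 above its HFD mean in the HFD-inulin arrays, where the HFD arrays gave 0.071, -0.035 and -0.033. HFD-inulin array 3 was thus below HFD array 1. The lean kept its sign on both sides of the array split for 10 of 12 genes, with medians of 0.20 and 0.087. For the 5 genes without overlap that sign was fixed by construction, and among the rest Eif3k and Eif3a turned.

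Eif3m, a PCI-domain subunit, measured 5.80, 5.57 and 5.44 in the HFD-inulin livers and 5.26, 5.30 and 5.26 in the HFD livers (here and below in the order of arrays 1 to 3). The lowest HFD-inulin array was above the highest HFD array. The means were 5.60 ± 0.18 and 5.27 ± 0.024 (SD, n = 3 each), a difference of 0.33 (SE 0.10, limma unadjusted p = 0.0139, adjusted p = 0.902). Eif3i, a WD-repeat subunit, measured 5.96, 6.03 and 5.67 in HFD-inulin and 5.58, 5.53 and 5.55 in HFD. Its groups did not overlap either, with a difference of 0.33 (SE 0.10, limma unadjusted p = 0.0150, adjusted p = 0.902). For both genes HFD-inulin array 3 was the lowest of its group.

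Eif3h, which carries an MPN domain, measured 7.38, 7.42 and 7.35 in HFD-inulin and 7.29, 7.18 and 7.20 in HFD. This difference was smaller, 0.16 (SE 0.063, limma unadjusted p = 0.0402, adjusted p = 0.902), and the HFD-inulin arrays lay close together (SD 0.033). After quantile normalization it was 0.035, and Eif3h no longer lay under an unadjusted 0.05. Eif3c, one of the core subunits, measured 6.52, 6.82 and 6.44 in HFD-inulin and 6.40, 6.34 and 6.25 in HFD, with a difference of 0.26 (adjusted p = 0.902 in limma) that was 0.15 without HFD-inulin array 2 and 0.17 after quantile normalization. Eif3e, first known as Int6, measured 4.77, 4.78 and 4.80 in HFD-inulin and 4.74, 4.56 and 4.61 in HFD. It was the one non-overlapping subunit with its highest value in HFD-inulin array 3, and its difference of 0.15 was 0.22 on that array's side of the split and 0.03 on the other.

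The other subunits overlapped between groups. Eif3a and Eif3b, of the core, had differences of 0.17 and 0.27, and both reached their maximum in HFD-inulin array 2, at 6.64 and 6.40. Eif3d, a subunit that can bind the cap, had a difference of 0.18, and its second and dimmer probe set (mean 1.29) gave 0.20. Eif3f, Eif3k and Eif3l gave 0.17, 0.21 and 0.18. Eif3j2, a copy of the loosely bound subunit eIF3j, gave the smallest difference, 0.08. Eif3k and Eif3a turned to -0.04 and -0.05 on the side of HFD-inulin array 3. No difference between eIF3 and another complex was tested.

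**Figure D2:**
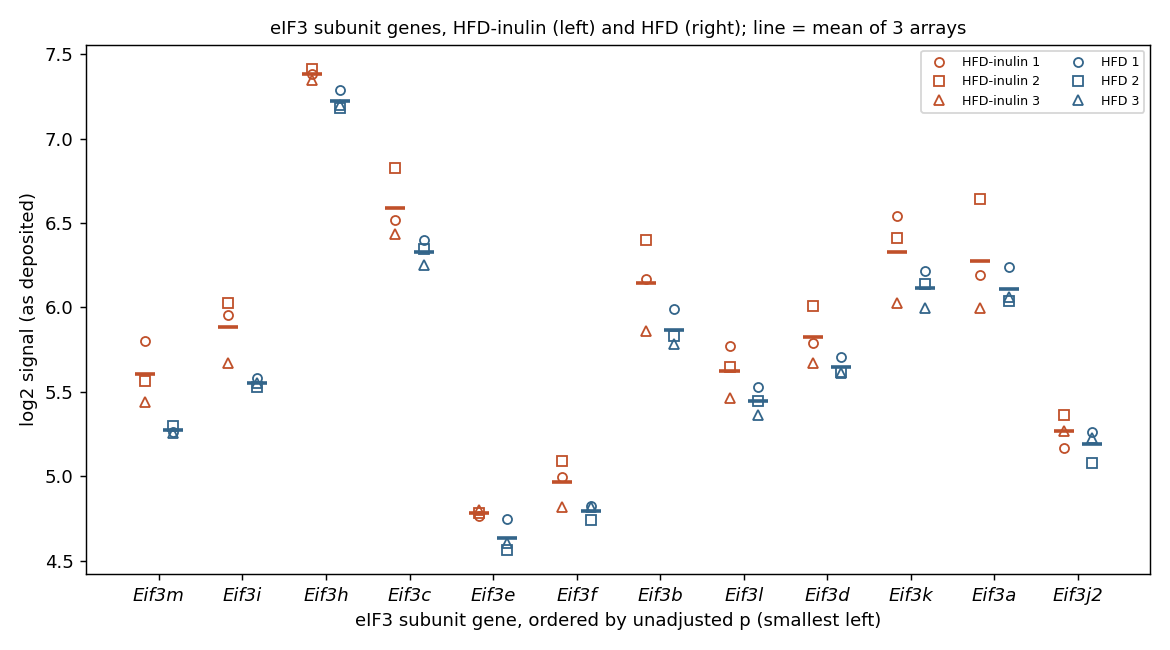
Deposited log2 signal of the 12 eIF3 subunit genes, with the 3 HFD-inulin arrays on the left of each pair and the 3 HFD arrays on the right; symbols give the array number and lines the group mean. In Eif3m, Eif3i, Eif3h, Eif3c and Eif3e the HFD-inulin arrays all lie above the HFD arrays, and the triangle (array 3) is the lowest HFD-inulin symbol in most genes.

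eIF1 and eIF1A open the small subunit for scanning and guard start codon choice. All 4 genes measured for this set had a higher mean in HFD-inulin (median difference 0.21), but only Eif1ax kept the groups apart. Eif1 itself is not among them. The X-linked Eif1ax measured 4.86, 4.94 and 4.59 in HFD-inulin and 4.42, 4.56 and 4.53 in HFD, a difference of 0.29 (SE 0.11, limma unadjusted p = 0.0301, adjusted p = 0.902). HFD-inulin array 3 exceeded the highest HFD array by little, and the difference was 0.48 on the side of arrays 1 and 2 but 0.04 on the other. Its autosomal copy Eif1a had the largest difference of all members, 0.43, with an SE of 0.34. It measured 4.69, 5.89 and 4.55 in HFD-inulin and 4.57, 4.76 and 4.52 in HFD, so 1 array made the difference, and without HFD-inulin array 2 it was -0.00016. Eif1b, a close relative of eIF1, measured 5.01, 5.05 and 4.52 in HFD-inulin and 4.90, 4.57 and 4.72 in HFD. HFD-inulin array 3 was the lowest of the 6 there, and the difference was 0.13. Eif1ad, an eIF1A-domain gene, gave 0.08.

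eIF2 carries the initiator tRNA. Eif2s2, its beta subunit, measured 4.25, 4.45 and 4.23 in HFD-inulin and 4.15, 4.10 and 3.97 in HFD. The groups did not overlap, and the difference of 0.24 (SE 0.089, limma unadjusted p = 0.0330, adjusted p = 0.902) was 0.20 and 0.19 on the 2 sides of the split. The gamma subunit has an X and a Y copy in the mouse. Eif2s3x averaged 5.81 ± 0.061 in HFD-inulin livers, against 5.84 ± 0.050 in HFD livers (SD, n = 3 each), a difference of -0.03. Eif2s3y measured 2.70, 2.58 and 2.68 in HFD-inulin and 3.03, 2.72 and 2.74 in HFD. These groups did not overlap, in the direction opposite to most members, with a difference of -0.18 (adjusted p = 0.902 in limma) that was -0.076 without HFD array 1. Eif2s3y did not follow the chromosome Y probe sets that split the arrays: its 3 arrays on the high side of that split were at 2.68 to 2.74. Of the tRNA carriers that act apart from eIF2, Eif2d measured 3.53, 3.66 and 3.42 in HFD-inulin and 3.48, 3.41 and 3.37 in HFD (difference 0.12), and Eif2a gave 0.01.

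eIF2B recharges eIF2 with GTP. All 5 subunit genes had a higher mean in HFD-inulin, with differences of 0.06 to 0.19, and each had its highest value in HFD-inulin array 2. Eif2b5, the catalytic epsilon subunit, measured 4.57, 4.67 and 4.36 in HFD-inulin and 4.35, 4.36 and 4.34 in HFD. HFD-inulin array 3 lay within the HFD range, so the groups overlapped (difference 0.18, limma adjusted p = 0.902). The delta subunit gene Eif2b4 measured 3.54, 3.88 and 3.42 in HFD-inulin and 3.48, 3.42 and 3.38 in HFD. The gamma subunit gene Eif2b3 measured 2.94, 3.25 and 3.09 in HFD-inulin and 2.97, 3.06 and 2.88 in HFD. Differences were 0.19 for Eif2b4, 0.13 for Eif2b3, 0.09 for Eif2b2 (beta) and 0.06 for Eif2b1 (alpha). The median of the 5 was 0.13 over all arrays, 0.047 without HFD-inulin array 2 and 0.015 on the side of HFD-inulin array 3.

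The 4 kinases that phosphorylate eIF2 alpha did not share the lean, with a median difference of -0.04. Eif2ak2 encodes PKR, which senses double-stranded RNA and is induced by interferon. It measured 3.67, 3.64 and 3.56 in HFD-inulin and 4.04, 3.80 and 3.72 in HFD. All HFD-inulin arrays were below all HFD arrays, with a difference of -0.23 (SE 0.097, limma unadjusted p = 0.0534, adjusted p = 0.902) that was -0.38 and -0.20 on the 2 sides of the split and -0.13 without HFD array 1. Eif2ak3 encodes PERK, the kinase of endoplasmic reticulum stress. It measured 2.86, 3.60 and 3.02 in HFD-inulin and 3.24, 3.28 and 3.15 in HFD, so HFD-inulin held both its highest array and its 2 lowest. Eif2ak4, the amino acid sensor GCN2, measured 2.09, 2.10 and 2.04 in HFD-inulin and 2.07, 2.01 and 2.04 in HFD. The heme-regulated kinase gene Eif2ak1 gave a difference of -0.02, against 0.04 for Eif2ak4 and -0.06 for Eif2ak3.

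Among the eIF4 genes, which serve the cap and the helicase, 7 of 10 had a higher HFD-inulin mean, where 63.0% of bright genes did. The median difference of the eIF4 genes was 0.07. That median was 0.0053 without HFD-inulin array 2 and 0.027 after quantile normalization. The helicase gene Eif4a1 measured 5.84, 6.19 and 5.83 in HFD-inulin and 5.82, 5.75 and 5.66 in HFD. Its groups did not overlap, though by a narrow gap (difference 0.21, SE 0.11, limma adjusted p = 0.902). With HFD-inulin array 2 left out it was 0.091. Eif4b, whose protein stimulates that helicase, leaned the other way and had the lowest difference of all members, -0.35 (SE 0.18, limma adjusted p = 0.902). It measured 6.65, 6.40 and 7.15 in HFD-inulin and 7.10, 7.12 and 7.03 in HFD. HFD-inulin arrays 1 and 2 were the lowest of the 6 and array 3 the highest, so the difference was -0.58 on one side of the split and 0.08 on the other. Eif4h, a smaller relative of Eif4b, gave 0.09.

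Of the cap-binding genes, Eif4e had a difference of 0.29 (SE 0.16), with 5.17 in HFD-inulin array 2 and 4.42 to 4.71 in the other 5 arrays. Eif4e2, a relative that can repress translation, gave 0.06, Eif4e3 gave 0.11 and Eif4e1b, known from oocytes, gave -0.05. Eif4g2, a scaffold relative also called DAP5, measured 6.58, 6.70 and 6.45 in HFD-inulin and 6.48, 6.41 and 6.40 in HFD, a difference of 0.15. The scaffold gene Eif4g3 gave 0.02 and the helicase relative Eif4a3l1 gave -0.01. The differences between these relatives were not tested.

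The 4E-binding proteins oppose eIF4E. Eif4ebp1 measured 5.66, 5.88 and 5.46 in HFD-inulin and 5.56, 5.60 and 5.41 in HFD, and Eif4ebp2 measured 6.65, 6.28 and 6.41 in HFD-inulin and 6.50, 6.38 and 6.39 in HFD. Eif4enif1, which carries eIF4E into the nucleus, measured 3.41, 3.77 and 3.49 in HFD-inulin and 3.55, 3.49 and 3.49 in HFD. The groups overlapped in all 3, with differences of 0.14, 0.02 and 0.04 in that order. HFD-inulin array 2 was the highest array for Eif4ebp1 and Eif4enif1 and the lowest for Eif4ebp2.

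The late factors followed HFD-inulin arrays 1 and 2. Eif5b, the GTPase of subunit joining, measured 4.43, 4.72 and 4.26 in HFD-inulin and 4.27, 4.23 and 4.22 in HFD (difference 0.23). Eif5a, the hypusinated factor that also acts in elongation, measured 6.996, 6.98 and 6.57 in HFD-inulin and 6.62, 6.62 and 6.67 in HFD (difference 0.22). Eif6, which keeps free large subunits from joining, measured 5.84, 6.34 and 5.63 in HFD-inulin and 5.71, 5.73 and 5.70 in HFD (difference 0.22). The 3 HFD arrays of Eif6 lay within an SD of 0.017, against 0.37 in HFD-inulin. For Eif5a and Eif6, HFD-inulin array 3 was the lowest of all 6. Eif5a2, a relative of Eif5a, had a mean of 1.22 in HFD-inulin and 1.29 in HFD, near the median probe set, where a difference carries little signal. Eif2c5 was dimmer still, at 0.71, 0.72 and 0.60 in HFD-inulin and 0.75, 0.60 and 0.69 in HFD.

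**Figure D3:**
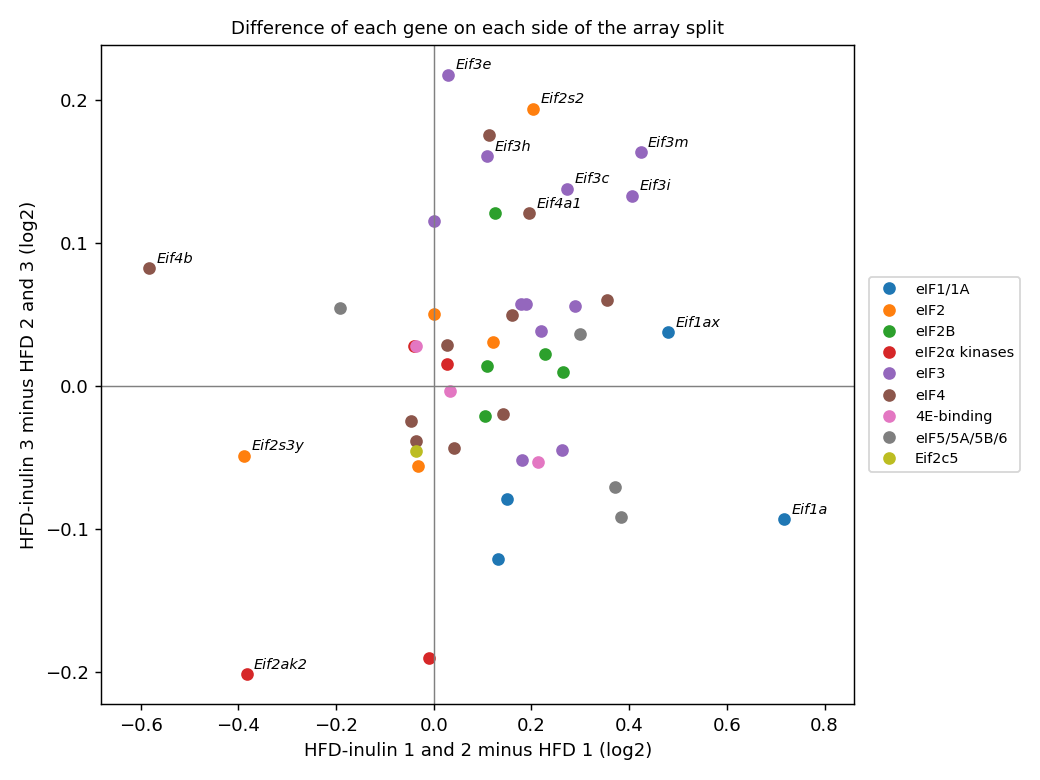
Log2 difference of each member on each side of the array split: HFD-inulin 1 and 2 minus HFD 1 (horizontal axis) and HFD-inulin 3 minus HFD 2 and 3 (vertical axis), coloured by complex, with names for the members whose groups did not overlap and for Eif4b and Eif1a. The horizontal spread is wider than the vertical one. Of the genes with names, Eif2s2, Eif3m, Eif3i, Eif3c, Eif3h, Eif3e and Eif4a1 lie above 0.1 on the vertical axis. Eif4e3 (0.18), Eif2b3 (0.12) and Eif3j2 (0.12), shown without names, do so too.

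Each side of the split was also taken alone. HFD-inulin arrays 1 and 2 against HFD array 1 gave a median member difference of 0.13, with 36 of 48 above 0, where 54.3% of bright genes were. HFD-inulin array 3 against HFD arrays 2 and 3 gave 0.028, with 29 of 48 above 0, where 55.7% of bright genes were. The median of the bright genes was 0.0274 on the first side and 0.018 on the second. On the second side the members' median was thus near that of bright genes. On that second side no member lay under an unadjusted 0.05, where 6.58% of all probe sets did. Each side has a group of 1 array, which limma assumes to vary like the others, and the difference between the sides was not tested. The direction of the 10 members whose groups did not overlap is the same on both sides by construction.

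Lists of related translation genes ranged from all genes higher in HFD-inulin to no common direction. Their counts of higher means, here and below, stand against 63.0% of bright genes and 43.5% of all probe sets. Their counts under an unadjusted 0.05 stand against 5.15% of all probe sets and 13.2% of bright genes. Of 14 measured initiation factors under other symbols, 10 had a higher HFD-inulin mean (median difference 0.14), and 0 lay under an unadjusted 0.05. The genes with the smallest p were Mcts1 (0.17), which works with Denr in reinitiation, the ABC protein gene Abcf1 (0.15) and the nuclear cap-binding gene Ncbp2 (0.22). Of 15 genes in the elongation factor list, 10 had a higher mean (median 0.10) and 4 lay under 0.05, all higher. Among these were Eef1d (0.25), Eef1e1 (0.29) and Hbs1l (0.22). Eef1e1 and Hbs1l are in the list by symbol or kinship and are not themselves elongation factors. The termination and recycling list also names the mitochondrial initiation factor genes Mtif2 and Mtif3. It had 7 of 9 higher (median 0.06) and none under 0.05. The smallest p were those of the mitochondrial gene Mrrf (0.30), Gspt1 (0.20) and Mtif3 (-0.11).

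The small ribosomal subunit and the tRNA synthetases had the highest medians of the 8 lists. All 17 measured small-subunit protein genes, of 33 in the list, had higher means, with a median of 0.27, and 12 lay under an unadjusted 0.05, all higher, which 9.93% of bright genes did. They were led by Fau (0.41), Rps4x (0.43) and Rps7 (0.45). The probe set of Fau is numbered on another chromosome than the gene. All 18 cytosolic aminoacyl-tRNA synthetase genes had higher means, with a median of 0.25, and 4 lay under 0.05, led by Kars (0.24), Farsb (0.43) and Gars (0.42). In both lists HFD-inulin array 2 stood highest, at 0.48 and 0.51 above the HFD mean, against 0.088 and 0.039 in HFD-inulin array 3.

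Regulators of initiation showed no common direction. The mTOR and MNK list had 9 of 23 higher, with a median of -0.04, and 1 gene lay under 0.05 each way: Rheb, the GTPase that activates mTOR (0.38), and Sesn3, a sestrin (-0.45). Castor1, an arginine sensor, gave -0.18. The integrated stress response list had 8 of 17 higher and a median of -0.0033. Atf4, the transcription factor translated when eIF2 alpha is phosphorylated, measured 5.16, 5.39 and 5.03 in HFD-inulin and 4.97, 4.76 and 4.64 in HFD, so its groups did not overlap (difference 0.40, SE 0.13, limma unadjusted p = 0.0158, adjusted p = 0.902). Trib3, a target of ATF4, leaned the other way (-0.30), and Impact, an inhibitor of GCN2, gave 0.21. The poly(A)-binding and cap-accessory list had 7 of 14 higher and a median of -0.0018, with Lsm14a (0.21) and Ddx6 (-0.21) under 0.05 in opposite directions and Paip2 at 0.16. In none of the 8 lists did a gene pass the adjusted threshold.

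**Figure D4:**
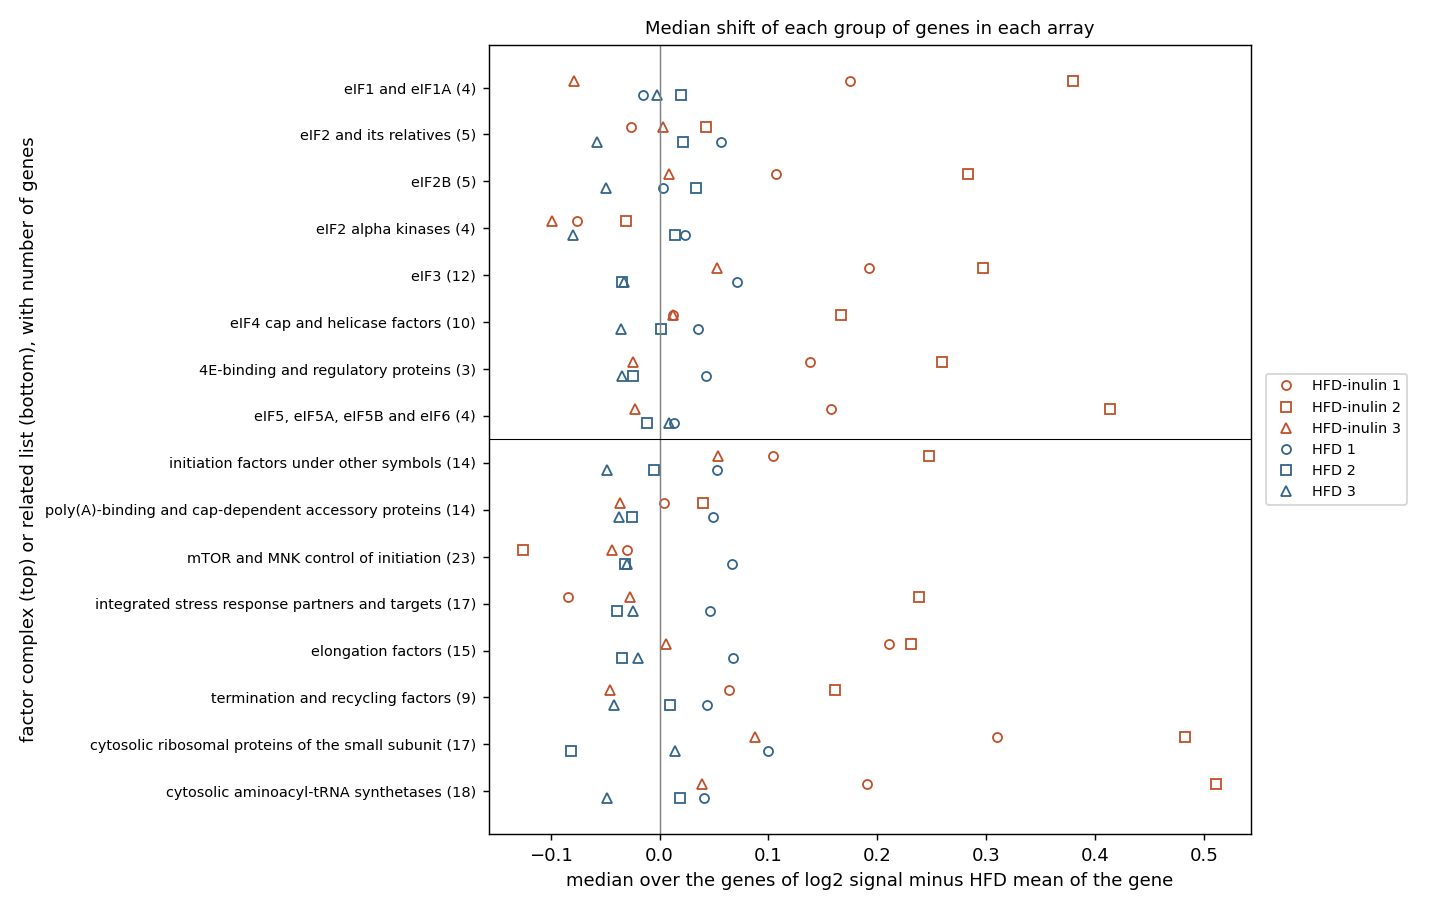
For each factor complex (top) and related list (bottom), with its number of genes, the median over its genes of log2 signal minus the gene's HFD mean, in each array; red symbols are the 3 HFD-inulin arrays and blue the 3 HFD arrays. HFD-inulin array 2 (red square) is rightmost in most rows, and HFD-inulin array 3 (red triangle) lies near the HFD arrays.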

How the data were processed

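Liver RNA of 6 mice was measured on 1 array each, 3 HFD-inulin and 3 HFD, grouped by title. The authors' deposited values are log2 signals per probe set. Per the submitters' processing notes the tool was Affymetrix Expression Console 1.0. Values ran from -0.13 to 12.15, from which the log base was taken. How signals were summarized and corrected for background, and on which build, is not given in the sources used here. Without detection calls no limit of detection is stated. The number of arrays limits the precision.

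Probe sets were named through GEO's platform annotation, with symbols updated through RefSeq (GRCm38.p6). Of 65956 probe sets, 30604 carried 1 symbol, 2146 several (unnamed) and 33206 none. limma 3.58.1 (R 4.3.3; lmFit, eBayes) gave the difference HFD-inulin minus HFD, two-sided, unfiltered and with no covariate, Benjamini-Hochberg adjusted over all probe sets at 0.05. Lists are described by counts and medians only.

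Values per array are given for members whose groups do not overlap, members with an unadjusted p under 0.05 and up to 3 members per complex with the smallest p. Each related list names up to 3 genes by p. Members, lists and motifs were chosen with earlier results of these data known. In a simulation of this comparison 65956 probe sets held 50 true changes of each of 4 sizes. limma found 0 of those of 0.25 (log2), 4 of those of 0.5, 35 of those of 1 and 49 of those of 2, with 6 false calls. Alternatives changed the variance prior, the moderation, the filter, the scaling, the array weights, the blocks, the arrays used, the probe set per gene and the membership.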

Additional observations from a re-analysis of the deposited data

How the results depend on the processing

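The lean of the members kept its sign in every alternative run: 29 to 42 of 48 were higher (34 of 40 without kinases, binding proteins and Eif2c5), and all 12 eIF3 genes were, except 11 without HFD-inulin array 2 and 10 on the high side of the split. Least squares, the trended and robust prior, the filter and the replicate block leave each gene's difference as it was. The sign could not turn in those runs. No member passed an adjusted p of 0.05 in any alternative. The smallest was 0.116, without HFD-inulin array 3. Over all probe sets limma called 0 except 4 with a trended and robust prior, none of them a member. Members under an unadjusted 0.05, 5 in the report, were 9 with array weights, 3 with least squares, 3 after quantile normalization, 3 with the split as a block and 0 on its high side. The shares of all probe sets in those settings were 7.46%, 4.60%, 4.67%, 5.19% and 6.58%. With an array left out 2 to 18 members lay under 0.05, the 2 against 3.98% of all probe sets and the 18 against 9.89%. Members without overlap, 10 in the report, were 6 after quantile normalization and 11 to 31 with an array left out. The 31 (HFD-inulin array 3 left out) are 64.6% of members, against 27.0% of all probe sets and 47.8% of bright genes. The 18 (HFD array 1 left out) are 37.5%, against 23.4% and 29.8%. The 11 (HFD array 3 left out) are 22.9%, against 17.8% and 21.5%. Leaving out an array thus raised non-overlap over all probe sets too, from 10.3% with all 6 arrays. The 6 have no such share beside them. With the replicate number as a block 6 members lay under 0.05, where 5.08% of all probe sets did. The median stayed at 0.13, which this block cannot change. Deviations of same-numbered arrays correlated at 0.261, -0.278 and 0.404, so the numbers were not read as pairs.

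On the high side of the split (HFD-inulin 3 against HFD 2 and 3) the median moved to 0.028 for all members and -0.086 for eIF1 and eIF1A. It was 0.015 for eIF2B and -0.017 for the eIF5 to eIF6 genes. Among related lists it was 0.043 for tRNA synthetases, 0.056 for factors under other symbols and -0.026 for the termination and recycling list. On the low side the mTOR list moved to -0.11. With an array left out, medians ranged from 0.036 to 0.17 for all members, 0.019 to 0.35 for eIF1 and eIF1A, -0.11 to -0.0043 for the kinases, -0.0095 to 0.029 for eIF2 and its relatives, 0.047 to 0.17 for eIF2B, 0.15 to 0.29 for eIF3, 0.0053 to 0.099 for eIF4, 0.031 to 0.12 for the 4E-binding proteins and 0.061 to 0.34 for the eIF5 to eIF6 genes. For the related lists they ranged from 0.054 to 0.19 for factors under other symbols, -0.023 to 0.036 for poly(A)-binding and cap-accessory genes, -0.069 to -0.013 for the mTOR list, -0.042 to 0.14 for the stress response list, 0.038 to 0.19 for elongation, 0.013 to 0.12 for termination, 0.20 to 0.39 for the small ribosomal subunit and 0.14 to 0.34 for the tRNA synthetases. Among genes, the sign turned on the high side for Eif1a (-0.093), Eif1b (-0.12), Eif4b (0.083), Eif4ebp1 (-0.053), Eif4enif1 (-0.0033), Eif5a (-0.071) and Eif6 (-0.091). It turned for Eif4ebp2 on the low side (-0.036), with the split as a block (-0.0039) and after quantile normalization (-0.069), and for Eif2c5 with array weights (0.018), median centring (0.028) and quantile normalization (0.013). With an array left out the range crossed 0 for Eif1a (-0.00016 to 0.67), Eif4enif1 (-0.066 to 0.12), Eif4ebp2 (-0.077 to 0.11), Eif2ak3 (-0.28 to 0.089) and Eif2c5 (-0.045 to 0.035). The cause was not tested. A dim member such as Eif5a2 or Eif2c5 has little signal over background. In simulated data with 3 arrays a group the test recovered 0 of 50 changes of 0.25 and 4 of 50 changes of 0.5. Sizes between these, where the largest member differences lie, were not simulated. The simulated noise held no array split, and its spread was not tied to brightness.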
